A study of Dugesia japonica with 19 samples.

Results

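Late-listed sites are m6A sites that stood in no list of day 0 pieces and in at least 4 of the 15 lists of later days. They numbered 470, on 387 contigs, of the 5847 sites on 2882 contigs in all lists. They were chosen by their listing alone, in head, trunk or tail, so their absence on day 0 and their recurrence later are given as a description and not as a finding. The other 1708 sites in at least 4 later lists were also listed on day 0, and they serve here for comparison as the early-listed recurrent sites. A site is a position and strand of an assembled transcript contig of the planarian Dugesia japonica. All contig names in the files begin with TRINITY_, which is left out here. The files do not pair contigs with genes and hold no sequence, so neither is given.

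N6-methyladenosine (m6A) is a methyl mark on adenosines within messenger RNA. It is set by a methyltransferase complex and read by proteins that act on splicing, export, translation and decay. Planarians are flatworms that regrow a head, a trunk or a tail from a cut piece, by way of stem cells called neoblasts, while signalling along the body axis fixes which end forms what. The assay, m6A-REF-seq, rests on the bacterial endoribonuclease MazF, which cuts RNA at the motif ACA unless the adenosine within the motif is methylated.

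The study followed m6A along the body axis during regeneration. Head, trunk and tail were each sampled with 1 library per time point, on days 1, 3, 5, 7 and 10 and, as the starting point, on day 0. Each library came from cut pieces of 10 to 20 planarians pooled before RNA extraction, so animals are not replicates here, and the day 0 libraries came from cut pieces too. All these libraries were treated with MazF, no genotype or strain is labelled, and 1 control of intact animals, made by in vitro transcription (IVT), carries no modification.

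The level of a site is its uncut share in a library minus its uncut share in the control. When no read is cut, the level equals 1 minus the control share, which is the highest value it can take. No listed level was under 0.1, and every listed site had at least 11 uncut reads in the library or in the control. A site with 11 uncut control reads could thus be listed on 1 read, whereas any other site needed 11 uncut reads of its own. A site that is not in a list has no value there, since being unmethylated, being unexpressed and being read too little cannot be told apart. Total depth is unknown, so depth was compared through the 39 sites found in all 18 libraries. Reads at these sites summed to 159655 on day 0, and to 292402, 314929, 732123, 719237 and 466869 on days 1, 3, 5, 7 and 10. Day 0 was therefore the day with the fewest of these reads.

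The share of recurrent sites missing on a day was not particular to day 0. The 470 late-listed sites made up 21.6% of the 2178 sites in at least 4 later lists. When the same rule was put to the lists of another day, 505 sites (23.1%) were missing on day 1, 457 (20.5%) on day 3, 203 (9.87%) on day 5, 159 (7.87%) on day 7 and 880 (37.8%) on day 10. Day 0 thus lay between days 1 and 3, below day 10 and above days 5 and 7. The lists of a day held 3412 entries on day 0 over the 3 tissues, and 3908, 3267, 4636, 5257 and 2952 on the later days in order. Days 5 and 7, with the longest lists, were the days on which fewest recurrent sites were missing, and day 10, with the shortest lists, was the day on which most were. The part of list length in these counts was not tested.

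**Figure D1:**
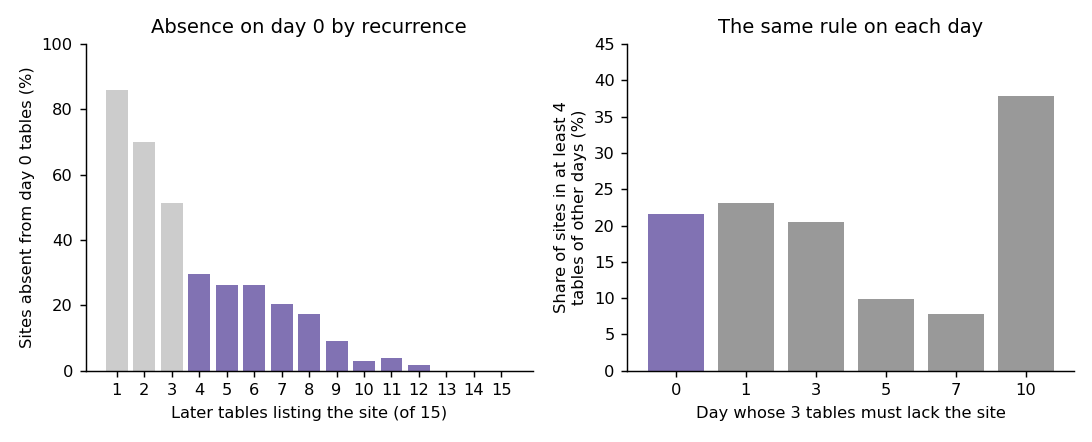
Left, the share of sites absent from all 3 day 0 lists (%), against the number of later lists that hold the site, with the late-listed sites in purple. Right, the share of sites (%) in at least 4 lists of other days that are missing from the 3 lists of the day on the x axis. The left bars fall from 85.9% at 1 later list to 0% at 13 or more, and the day 0 bar on the right (21.6%) stands between those of day 1 (23.1%) and day 3 (20.5%).

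Late-listed sites were in a median of 5 later lists. They were in 4 later lists in 204 cases, in 5 in 101, in 6 in 75, in 7 in 44, in 8 in 28, in 9 in 12, in 10 in 3, in 11 in 2 and in 12 in 1. Absence on day 0 was less frequent among sites found more widely later. It held for 85.9% of sites in 1 later list, 70% in 2, 51.5% in 3, 29.5% in 4, 17.5% in 8 and 3% in 10, and no site in 13, 14 or 15 later lists was absent. The 204 sites just inside the threshold, in 4 later lists, had a median of 2.5 reads and a median level of 0.252. The 382 sites just outside it, in 3 later lists and on no day 0 list, had a median of 2 reads and a median level of 0.278.

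First lists of late-listed sites came somewhat later than the first later lists of early-listed recurrent sites. A rule of at least 4 later lists favours early first lists in both sets. Late-listed sites were in a median of 5 later lists on 2.5 reads, against 6 lists on 6 reads for early-listed ones. The part of this gap in the first lists was not tested. The first list was of day 1 for 338 late-listed sites (71.9%), of day 3 for 99 (21.1%) and of day 5 for 33 (7.02%). Among early-listed recurrent sites, the first later list was of day 1 for 86.8%, of day 3 for 11.4% and of day 5 for 1.81%. Sites first listed on days 1, 3 and 5 had median levels of 0.230, 0.262 and 0.327, and medians of 3, 2 and 2 reads. The last list of late-listed sites was of day 10 for 336 (71.5%) and of day 7 for 128. Among early-listed recurrent sites the last list was of day 10 for 72.2%, which is a similar share. All 5 later days held 123 of the late-listed sites, 4 days held 242, 3 days held 102 and 2 days held 3.

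The number of late-listed sites per library followed a different course in each tissue. Head libraries held 226, 185, 253, 194 and 63 of them on days 1, 3, 5, 7 and 10. Trunk libraries held 113, 134, 229, 212 and 257, and tail libraries held 42, 77, 119, 260 and 111. Head was highest on day 5 and lowest on day 10, trunk was highest on day 10, and tail was highest on day 7. Reads at the common sites, divided by those of the tissue's own day 0, were likewise highest on day 5 in head (a median ratio of 2.92) and lowest there on day 10 (0.0661), highest on day 10 in trunk (8.56) and highest on day 7 in tail (6.92). Against all recurrent sites in the same list, the late-listed share was 16.4, 14.5, 17.8, 14.4 and 11.4% in head, 18.4, 18.7, 23.1, 23.4 and 23.5% in trunk and 10.7, 13.3, 15.4, 20.5 and 14.9% in tail.

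**Figure D2:**
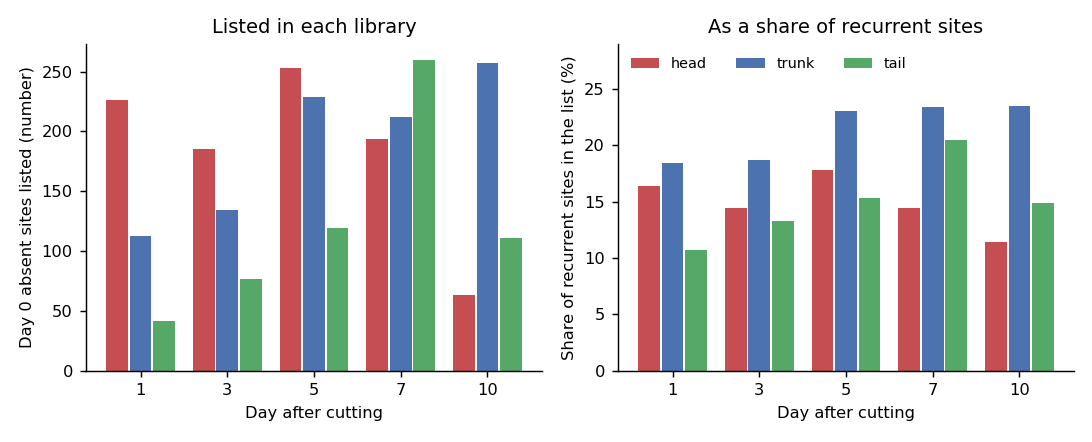
Late-listed sites in each library, as a number (left) and as a share of the recurrent sites in that library's list (right, %), by day (x axis) and tissue (colour), with 1 library per bar. Trunk bars are the tallest on day 10 (257 sites, 23.5%) and the tail bar stands out on day 7 (260 sites, 20.5%).

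Some late-listed sites were listed in libraries with less depth than the day 0 library of the same tissue. By the common sites these were head on day 10, with the ratio of 0.0661, and tail on days 1 and 3, with ratios of 0.333 and 0.476. They held 63, 42 and 77 late-listed sites, on a median of 2, 1 and 1 reads, and 149 of the 470 sites (31.7%) were in at least 1 of them. Late-listed sites made up 11.4, 10.7 and 13.3% of the recurrent sites in these lists, in the same order, against 21.6% of all recurrent sites. Absence on day 0 was the rule of choice, so it holds for these 149 sites by that rule. The part of depth in their absence on day 0 was not tested.

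Late-listed sites were spread over the body axis. They were in all 3 tissues in 137 cases, in trunk and tail in 112, in head and trunk in 95, in head alone in 66, in head and tail in 38, and in trunk alone and tail alone in 11 each. In total 336 were found in head, 355 in trunk and 298 in tail. Among recurrent sites of trunk alone, 11 of 20 were late-listed (55%). These were 66 of 459 for head alone (14.4%) and 11 of 62 for tail alone (17.7%). Sites of head and trunk without tail were late-listed in 31.8% of cases, those of trunk and tail without head in 28.6%, and those of all 3 tissues in 17.7%.

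Trunk also had the highest share when each tissue was set against its own day 0. Of sites on at least 4 later days of head, 155 of 1085 (14.3%) were missing from the day 0 head list. In trunk these were 300 of 583 (51.5%), and in tail 60 of 444 (13.5%). The day 0 trunk list was short, with 468 sites, against 1790 in head and 1154 in tail, and 188 of the 300 trunk sites were in the day 0 list of another tissue. Of the 470 late-listed sites, 124 were on at least 4 later days of head, 112 of trunk and 39 of tail. Among the 1708 early-listed recurrent sites these were 961, 471 and 405. All 5 later days of a tissue were reached by 10 late-listed sites in head, 33 in trunk and 7 in tail. Early-listed sites that did so numbered 350, 295 and 222.

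Few reads lay behind most of these sites. The median over its later lists was 2.5 reads for the middle late-listed site (quartiles 1.5 and 8), against 6 reads for the middle early-listed recurrent site (quartiles 2.5 and 22). The median was under 10 reads at 358 late-listed sites (76.2%), against 59.5% of early-listed ones. Of their 2475 entries in the later lists, 801 (32.4%) rested on 1 read, against 18.9% of the entries of early-listed sites. The highest median was 177 reads among late-listed sites and 58040 among early-listed ones. Among all recurrent sites, the late-listed share was 44.9% where the median was under 2 reads, 24.6% from 2 to below 5, 9.94% from 5 to below 10, 20.3% from 10 to below 30, 4.80% from 30 to below 100 and 3.95% from 100 on.

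The 10 to 30 read bin, with its 97 late-listed sites, held most of those that lacked 11 uncut control reads. There were 93 late-listed sites without them, with a median of 20.5 reads, as the filter requires of such sites. The 377 sites with 11 uncut control reads had a median of 2. At least 11 uncut reads of the library's own were found in some later library at 196 sites, in at least 4 later libraries at 104, and in none at 274.

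The reads to be found on day 0 were projected from the later libraries. For each tissue, the reads of a site over the later days, with unlisted days taken as 0, were divided by the summed depth of those days relative to day 0, and the highest tissue was kept. This measure was added after the data had been seen. It came to a median of 1.40 reads at late-listed sites and 6.67 reads at early-listed ones. It was under 1 read at 189 of the 470 sites, at least 3 at 153 (32.6%, against 68.3%) and at least 11 at 48 (10.2%, against 38.1%). With depth taken from summed reads, at least 11 was reached by 22 sites. A projection of at least 3 reads was met by 65 sites that had 11 uncut control reads. A projection of at least 11 uncut reads was met by 24 of those that did not. By one route or the other, 89 late-listed sites (18.9%) met these bounds in projection, against 64.2% of early-listed ones. All early-listed sites were in fact listed on day 0, so the projection missed many sites that were read. The sets were chosen by day 0 listing, which depends on reads, so a gap between them is in part built in.

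**Figure D3:**
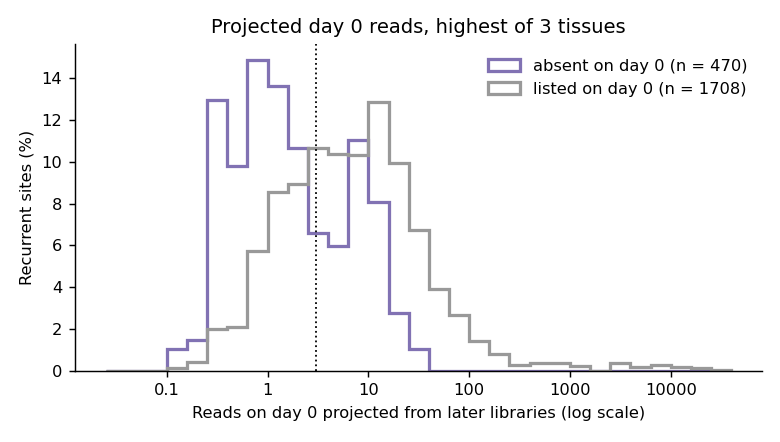
Reads on day 0 projected from the later libraries of the same tissue, highest of the 3 tissues (x axis, log scale), for late-listed and early-listed recurrent sites, as a share of each set (y axis, %). The dotted line marks 3 reads, which 32.6% of late-listed sites and 68.3% of early-listed sites reach.

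Levels of late-listed sites spanned the range of the lists. The mean level over later libraries had a median of 0.25 (quartiles 0.154 and 0.416, extremes 0.101 and 0.95), against 0.257 (quartiles 0.162 and 0.440) at early-listed sites. It was at least 0.5 at 80 late-listed sites (17%, against 19.3%) and under 0.15 at 106 (22.6%, against 20.6%). Over the sites found in each tissue, head had a median of 0.2, trunk of 0.254 and tail of 0.266. Early-listed sites had the same order, with 0.219, 0.252 and 0.274. The control share behind these levels had a median of 0.748, against 0.727, on 24 and 26 control reads.

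Most levels were set by the control alone. No read was cut in any later library at 331 late-listed sites (70.4%), against 957 early-listed ones (56.0%), so that each of the 331 had 1 level throughout. Cut reads were seen at the other 139 sites, in head at 99, in trunk at 65 and in tail at 12. They were seen in 1 library only at 53 sites and in at least 4 libraries at 27. At these 139 sites the SD of the level over libraries had a median of 0.117, and the range passed 0.3 at 63.

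Other features were close between the sets. The minus strand held 57.4% of late-listed sites, against 55.4% of early-listed ones. Contigs had a median length of 1694 bases, against 1703.5, and the median relative position along the contig was 0.482, against 0.480.

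The contigs of late-listed sites were listed elsewhere on day 0 in about as many cases as not. Another site of the same contig was in a day 0 list for 234 of the 470 sites (49.8%), against 65.7% of early-listed sites, and this held for 191 of the 387 contigs. The day 0 site was in a tissue that later held the late-listed site in 203 of the 234 cases. The contig was listed on day 0 in 1 tissue for 122 sites, in 2 for 62 and in 3 for 50. For the remaining 236 sites, on 196 contigs, nothing of the contig was listed on day 0. Sites on contigs listed on day 0 had a median of 3 reads and a level of 0.273, against 2 reads and 0.222 on the other contigs. Their control shares had medians of 0.713 and 0.765.

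The nearest day 0 site on the same strand was rarely close. Such a site existed for 191 late-listed sites, at a median distance of 164 bases, against 81 bases for the 911 early-listed sites that had one. It lay within 50 bases of 29 late-listed sites (6.17%), against 351 early-listed ones (20.6%). The closest pair was position 419 of DN3671_c0_g1_i7, plus strand, 9 bases from a site with 2 reads on day 0. It had levels of 0.135 on 14 reads and 0.278 on 1 read in head on days 1 and 3, and 0.278 in each of 4 trunk libraries on 3 to 18 reads. Position 455 of DN3629_c0_g1_i4 lay 14 bases from its day 0 neighbour, position 1418 of DN5094_c0_g1_i3 15 bases, position 1575 of DN16573_c0_g2_i2 16 bases and position 2078 of DN263_c10_g1_i2 20 bases. The last of these was found in head only, with 30, 22, 27 and 17 reads on days 1, 3, 5 and 7, and its day 0 neighbour had 27 reads. Its control had 1 uncut of 2 reads. Here reads of similar depth covered the neighbouring site on day 0 while the site itself was not listed. With so few control reads, position 2078 needed 11 uncut reads of its own to be listed. Its projection for day 0 in head was 11.6 uncut reads, close to that bound. With depth taken from summed reads, its projection fell below 11 reads. The part of depth in its absence on day 0 was not tested.

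Of all contigs with a late-listed site, the one with the most reads on day 0 was DN678_c0_g2_i4, of 5705 bases, with 22 sites and 164930 reads in day 0 lists. Its late-listed site, position 4995 on the minus strand, was first listed on day 5. It had 33 uncut of 51 reads in head on day 5, 11 of 12 and 15 of 16 in trunk on days 7 and 10, and 38 of 38 in tail on day 7. The mean level was 0.542 ± 0.156 (SD, n = 4 libraries). The nearest same-strand site of day 0, 115 bases away, had 19 reads on that day, so that depth along this contig was uneven.

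Other well-covered contigs held late-listed sites on few reads. DN2158_c0_g1_i12 had 17 sites and 992 reads on day 0, and its position 1105 was in all 5 later tail lists, with 2, 2, 2, 54 and 3 reads on days 1, 3, 5, 7 and 10. DN6582_c0_g1_i1 had 627 reads at 5 sites, and its position 1095 never passed 8 reads. DN2841_c0_g1_i3 had 606 reads at 4 sites, and its positions 590 and 607 were in every later trunk list with at most 12 and 11 reads. All of these positions had at least 11 uncut reads in the control.

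Position 871 of DN3099_c0_g1_i3, minus strand, was the most widely listed, in 12 of the 15 later libraries. In head it had 26 uncut of 90 reads on day 3, 34 of 83 on day 5, 12 of 40 on day 7 and 1 of 2 on day 10, which gave levels of 0.157, 0.278, 0.168 and 0.368. In trunk the levels were 0.868, 0.535, 0.535, 0.750 and 0.868 on days 1, 3, 5, 7 and 10, on 4, 3, 9, 17 and 24 reads. In tail it was 0.868 on days 1, 7 and 10, on 1, 23 and 2 reads, with no read cut. Head levels all lay below those of trunk and tail, and the control had 21 uncut of 159 reads. On day 7 the uncut share was 0.3 in head (Wilson 95% interval 0.181 to 0.454), 0.882 in trunk (0.657 to 0.967) and 1 in tail (0.857 to 1). These intervals cover counting error only.

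The next most listed sites varied less. Position 262 of DN156853_c0_g1_i1 was in 11 lists at a level of 0.373 ± 0.0340 (SD, n = 11), with 3 cut reads of 93. Position 1112 of DN1465_c0_g2_i1 was in 11 lists with no cut read of 87, at its ceiling of 0.154 throughout. Position 1815 of DN10701_c0_g1_i4 had 1 cut read of 169 over 10 lists and stood at 0.110 in head on day 3 and at 0.154 elsewhere. At the sites of DN1465_c0_g2_i1 and DN10701_c0_g1_i4 the control share was 0.846, so the level was low although nearly no read was cut.

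In a further pair of sites in 10 lists, cut reads came mostly from head. Position 460 of DN7689_c0_g1_i1 had levels of 0.207 and 0.167 in head on days 5 and 7, on 37 and 22 reads. It had 0.524 to 0.667 in the 4 trunk libraries, on 3 to 14 reads, and 0.667 in the 4 tail libraries, on 1 to 3 reads. Position 291 of DN486_c0_g1_i4 had levels of 0.107 and 0.273 in head on days 3 and 5, on 17 and 37 reads. It had 0.563 to 0.813 in 5 trunk libraries and 0.813 in 3 tail libraries, all on 4 reads or fewer. In both sites head levels lay below every trunk and tail level, but on more reads than any trunk or tail entry. An entry of 1 read can be listed only if the read is uncut, which puts it at the ceiling. The part of the list filter in this order was not tested.

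The 4 sites in 9 lists with the most reads were close to their ceilings. Position 595 of DN5568_c4_g1_i1 had 637 reads, 11 of them cut, and a level of 0.404 ± 0.0154 (SD, n = 9). Position 2884 of DN5122_c0_g1_i4 had 365 reads with none cut, at 0.6 in all 9 libraries, although its control share rested on 5 reads. Position 455 of DN3629_c0_g1_i4 had 4 cut reads of 229, all in head on day 5, where the level was 0.426 and not 0.6. Position 737 of DN3893_c0_g1_i2 was in trunk on all 5 later days and in tail on days 3 to 10, at 0.782 with no cut read of 140, and in no head list.

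**Figure D4:**
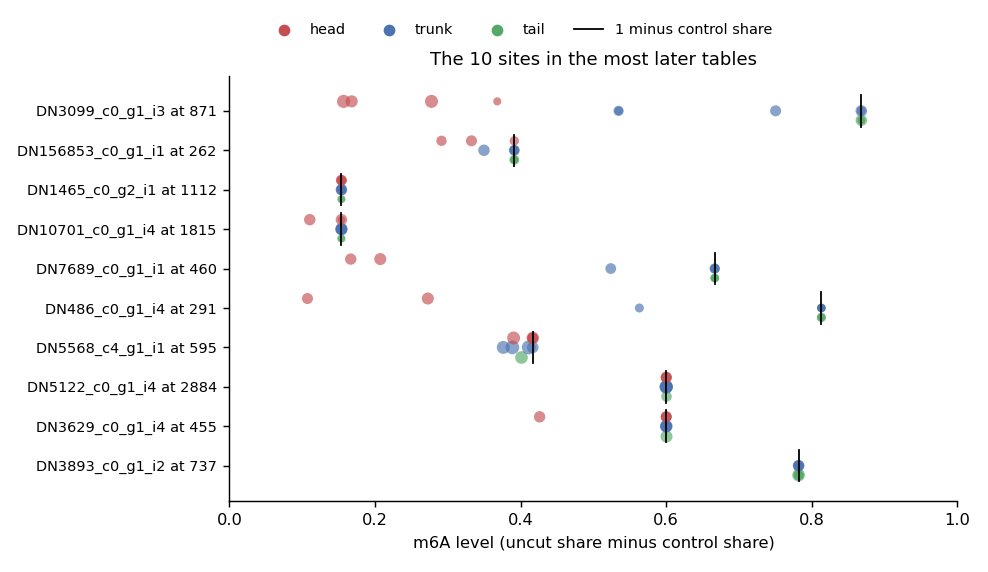
The m6A level (x axis) of the 10 late-listed sites in the most later lists, 1 point per library, coloured by tissue and sized by the log of its reads. Black bars mark 1 minus the control share, the highest level the site can take. Head points of DN3099_c0_g1_i3, DN7689_c0_g1_i1 and DN486_c0_g1_i4 lie left of all their trunk and tail points, while most other points sit on the bar.

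A small number of late-listed sites filled all later days of a tissue with ample reads. In head, position 229 of DN5832_c0_g1_i1 had 60, 22, 38, 31 and 1 reads on days 1, 3, 5, 7 and 10, position 232 of DN11153_c0_g2_i5 had 53, 24, 24, 26 and 1, and position 1234 of DN35221_c0_g1_i1 had 22, 17, 32, 15 and 4. No read of these 3 sites was cut, and their levels were low, at 0.133, 0.135 and 0.111. Their projected day 0 reads in head were 19.9, 16.7 and 11.8, and all 3 had at least 11 uncut control reads.

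In trunk, reads of such sites were most on day 10. Position 2884 of DN5122_c0_g1_i4 had 21, 27, 44, 95 and 118 reads, and position 2971 of the same contig, on the other strand, had 16, 25, 23, 55 and 100. Position 142 of DN9703_c2_g1_i4 had 3, 22, 40, 56 and 79 reads, at a level of 0.338 ± 0.00566 (SD, n = 5). Depth at the common sites relative to day 0 was 2.05, 3, 8, 6.33 and 8.56 in these libraries, so reads and depth were both highest on day 10.

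In tail, reads of such sites were most on day 7. Position 183 of DN4321_c2_g2_i2 was in tail alone, with 6, 15, 4, 39 and 12 reads and a level of 0.219 throughout. Position 285 of DN79825_c0_g1_i2 had 3, 1, 3, 43 and 5 reads at a level of 0.435. Day 7 was the deepest tail library, at 6.92 times day 0.

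Among the 112 late-listed sites with a median of at least 10 reads, 21 had a mean level of at least 0.5. The highest was position 2082 of DN1630_c0_g1_i6, plus strand, first listed on day 5. It had 14 uncut of 17 reads in head on day 5, all of 41, 84 and 102 reads in trunk on days 5, 7 and 10, and all of 26 in tail on day 7. Its mean level was 0.95 ± 0.0789 (SD, n = 5), with 1 uncut of 70 control reads. Nearly all of its reads were uncut in the tissues and cut in the control.

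The next highest mean levels were 0.911 ± 0.0292 (SD, n = 6) at position 243 of DN3099_c0_g1_i3, in trunk and tail, and 0.793 ± 0.164 (SD, n = 5) at position 928 of DN3487_c0_g1_i6. The site of DN3487_c0_g1_i6 stood at 0.530 and 0.733 in head on days 1 and 5, and at 0.9 in 3 trunk libraries. Position 1098 of DN26073_c1_g1_i5 had levels of 0.718, 0.623, 0.649 and 0.587 in head on days 1, 3, 5 and 7, on 80, 30, 62 and 19 reads. In trunk it had 0.745, 0.756 and 0.956 on days 5, 7 and 10, on 19, 15 and 15 reads. Every head level was below every trunk level, and tail on day 7 had 0.956. Position 411 of DN15940_c0_g1_i9 was in head alone, at 0.727 ± 0.107 (SD, n = 4), with a control of 5 reads.

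The lowest mean levels were at the edge of the lists' floor. They were 0.101 at position 534 of DN17685_c0_g1_i1, 0.104 at position 41 of DN15022_c0_g1_i1 and 0.104 at position 481 of DN458_c0_g1_i3. None of their reads was cut, and the control left 0.899, 0.896 and 0.896 of reads uncut.

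Of the 112 well-read sites, 41 were in head alone, 29 in head and trunk, 16 in all 3 tissues, 13 in trunk and tail, 7 in trunk alone, 5 in head and tail and 1 in tail alone. Cut reads were seen at 55 of them. The control held fewer than 20 reads at 85, with a median of 8, so their ceilings rest on few control reads. First lists were of day 1 for 93, of day 3 for 12 and of day 5 for 7.

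Late-listed sites shared contigs in part. One contig held 5 of them, 13 held 3, 53 held 2 and 320 held 1. On 96 contigs every listed site was late-listed. Neighbouring late-listed sites of the same strand made 66 pairs, 26 of them within 50 bases and 4 within 10. Such sites can be covered by the same reads and are not independent.

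DN104081_c0_g1_i7, of 1164 bases, held 5 late-listed sites on the minus strand and no site of day 0. Position 732 had 28, 23 and 9 reads in head on days 1, 5 and 7, at levels of 0.107, 0.120 and 0.139. Position 479 had 11 reads in tail on day 7, and positions 287, 512 and 962 never passed 5 reads in a library. Over all later lists the 5 sites had 6 to 61 reads each, so this contig was thinly read throughout.

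Position 418 of DN13833_c0_g1_i1 and its neighbours at 420, on the other strand, and 469 were listed in the same 6 libraries. Positions 418 and 469 each had 26, 15, 28 and 20 reads in head on days 1, 3, 5 and 7, and 27 and 12 in trunk on days 7 and 10. Their levels were 0.654 and 0.201, set apart by control shares of 0.346 and 0.778. DN3099_c0_g1_i3 held 3 late-listed sites of unlike tissues, with position 243 in trunk and tail, position 369 in head and tail, and position 871 in all tissues.

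A few late-listed sites had many cut reads and were read deeply after day 0. They were picked after their values were seen, as the 6 with the most projected day 0 reads. Position 2531 of DN27264_c0_g1_i2, plus strand, had 20 uncut of 88, 32 of 177, 39 of 252 and 46 of 343 reads in trunk on days 3, 5, 7 and 10. Its trunk levels were 0.195, 0.149, 0.123 and 0.102, the last of them close to the floor of the lists. In tail on day 7 it had 46 uncut of 64 reads, with a level of 0.686 and an uncut share of 0.719 (0.599 to 0.814). The trunk share on the same day was 0.155 (0.115 to 0.205), so the counting intervals do not meet.

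Position 268 of DN81838_c2_g1_i1 was in trunk alone, with 103, 160, 280 and 177 reads on days 3, 5, 7 and 10. Its levels were 0.278, 0.256, 0.194 and 0.287, and its contig was not listed on day 0. Both sites had under 11 uncut control reads, 4 of 124 for DN27264_c0_g1_i2 and 6 of 467 for DN81838_c2_g1_i1. They had projections of 30.8 and 25.8 reads on day 0 in trunk, of which 4.90 and 6.59 would be uncut, below the 11 the lists asked for.

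Position 1082 of DN3059_c0_g1_i3 had the highest projection, 38.6 reads in head. There it had 51 uncut of 99, 14 of 31, 45 of 87 and 36 of 78 reads on days 1, 3, 5 and 7, at levels of 0.312, 0.248, 0.314 and 0.258. Trunk levels were 0.797, 0.797 and 0.297 on days 5, 7 and 10, but on 1, 3 and 2 reads. Position 1121 of DN14756_c0_g1_i2 had 111, 24, 78 and 30 reads in head, at levels of 0.112, 0.238, 0.136 and 0.105. In trunk its levels were 0.238, 0.349, 0.571 and 0.571 on days 3, 5, 7 and 10. Both sites had at least 11 uncut control reads, 13 of 64 for DN3059_c0_g1_i3 and 66 of 154 for DN14756_c0_g1_i2, so that 1 read was enough for the lists' count filter.

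Whether the level of late-listed sites differed between tissues was tested over the later days. The choice of sites used listing on these days, which needs a level of at least 0.1. It did not rank tissues by level, but the order is not free of the listing. An entry of 1 read is listed only when uncut, at the ceiling, whereas a deeply read entry can show cut reads. Median reads of head against trunk were 82.5 and 2 at the site of DN3059_c0_g1_i3, but 32.5 and 49 at that of DN8704_c0_g1_i1. The part of the list filter and of read depth in the sign of the differences was not tested. The fit used limma on the levels of all sites on at least 3 later days in both tissues, with day as a block. Days stood in for replicates, so the p-values measure the spread over days. For head minus trunk, 377 sites could be tested and 5 (1.33%) were called at an adjusted p of 0.05, all lower in head. None of the 30 late-listed sites tested was called. Of these, 17 had a difference below 0, 1 above 0 and 12 had none or no spread, while over all 377 sites 169 were below 0, 20 above 0 and 188 had none or no spread. An unadjusted p under 0.05 was found at 5 of the 30, all lower in head, against 14.3% of all sites tested (53 lower and 1 higher in head), which is a similar share. The median difference was -0.03 over the 30, against 0 over all 377 sites.

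The smallest adjusted p among late-listed sites was 0.106 by limma, at position 267 of DN8704_c0_g1_i1, minus strand. It had levels of 0.245, 0.507, 0.467 and 0.402 in head on days 1, 3, 5 and 7, on 25 to 45 reads. In trunk it had 0.776, 0.742, 0.734 and 0.807 on days 3, 5, 7 and 10, on 22 to 68 reads. The groups did not overlap, and the difference was -0.292 (SE 0.0193), lower in head on 3 of 3 shared days. Its control had 2 uncut of 15 reads.

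Position 871 of DN3099_c0_g1_i3 had a head minus trunk difference of -0.429 (SE 0.0694, limma adjusted p = 0.139), lower in head on 4 of 4 shared days. Position 672 of DN5195_c0_g1_i2, minus strand, had 0.382, 0.512 and 0.590 in head and 0.957 in each trunk library on days 1, 5 and 7. Its difference was -0.462 (SE 0.0586, limma adjusted p = 0.199). The head uncut share on day 7 was 0.633 (0.455 to 0.781), and that of trunk was 1 (0.772 to 1) on 13 reads.

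The outcome for these sites turned on the fit. When sites with no cut read were kept out, 4 of the 20 late-listed sites left were called, all lower in head, namely those of DN3059_c0_g1_i3, DN3099_c0_g1_i3, DN5195_c0_g1_i2 and DN8704_c0_g1_i1. Their limma adjusted p-values then lay between 0.0178 and 0.0405. The same fit called 25 of all 198 sites (12.6%), all lower in head, so calls were not limited to late-listed sites. This setting chose sites by their cut reads, which enter the level, so its calls are not free of that choice. Cut reads were seen in head at 99 late-listed sites and in trunk at 65. At the site of DN5195_c0_g1_i2 they were in head only. At that of DN3059_c0_g1_i3, trunk had 1 and 3 reads on the shared days 5 and 7. A quasi-binomial model of the reads called none of the 30, and 12 of all 377 sites (3.18%).

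**Figure D5:**
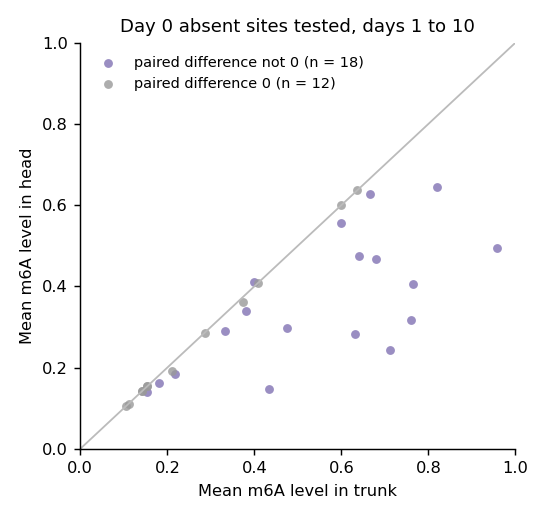
Mean m6A level in head (y axis) against that in trunk (x axis), over the later days on which each tissue listed the site, for the 30 late-listed sites tested, with the line of equal levels in grey. The 18 purple points had a paired difference other than 0, and 17 of these differences were below 0. None passed the limma threshold.

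Head minus tail could be tested at 208 sites, of which 8 (3.85%) were called, all lower in head. None of the 4 late-listed sites tested was called. The smallest adjusted p was 0.281 by limma, at position 871 of DN3099_c0_g1_i3, with a difference of -0.600 (SE 0.0895). Position 262 of DN156853_c0_g1_i1 followed with -0.0529 (SE 0.0274, limma adjusted p = 0.522).

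Trunk minus tail could be tested at 352 sites, of which 4 (1.14%) were called, all lower in trunk. None of the 31 late-listed sites tested was called, with 7 differences below 0 and 24 of none or no spread. Position 873 of DN38129_c0_g1_i4, minus strand, had levels of 0.389, 0.611, 0.622, 0.410 and 0.437 in trunk on days 1, 3, 5, 7 and 10. In tail it had 0.722, 0.597 and 0.722 on days 3, 7 and 10, on 1, 8 and 3 reads, so that the tissues overlapped. The difference was -0.195 (SE 0.0499, limma adjusted p = 0.452). Position 1549 of DN431_c0_g1_i2 had a difference of -0.35 (SE 0.146, limma adjusted p = 0.947), with trunk on 2 to 5 reads.

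No trend of level with day was called. Among 1101 sites in at least 6 later libraries on at least 3 days, 0 (0%) passed the limma threshold, with 12 rising and 3 falling at an unadjusted p under 0.05. Of the 165 late-listed sites tested, 33 had a slope above 0, 22 below 0 and 110 none, and none had an unadjusted p under 0.05. The smallest p belonged to position 347 of DN10974_c0_g1_i1, plus strand, with a slope of -0.0317 per day (SE 0.0118, limma adjusted p = 1). Its trunk levels were 0.443, 0.443, 0.307, 0.262 and 0.270 on days 1, 3, 5, 7 and 10, on 4, 9, 22, 22 and 23 reads. Position 303 of DN2373_c0_g1_i6 had a slope of 0.0425 per day (SE 0.0160, limma adjusted p = 1), and its day 10 levels of 0.586 in head and trunk rested on 1 and 2 reads.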

How the data were processed

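m6A-REF-seq libraries of head, trunk and tail were read from 18 deposited tables, each 1 library beside the control. Per the file headers, the authors gave counts of uncut and of all reads per motif, in library and control, and the uncut share and the level as a fraction. The contig length in bases is the other value used from the deposited tables. In every entry the level equalled the library share minus the control share, within 1e-09. The submitters' processing notes name FastQC, fastp 0.20.0 and HISAT2 2.4.2; the counting program and the list filter are not given in the sources used here, and the filter was read from the values. Control count columns are headed IVT together with the letters fto; they were read as the IVT control, and the levels rest on this.

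Samples were grouped by labelled tissue and day. Levels were fitted with limma 3.58.1 in R 4.3.3 (lmFit, eBayes, two-sided, Benjamini-Hochberg over all sites tested, threshold 0.05), with day or tissue as a block; differences of 0 were never called. With 1 library per tissue and day, nothing measures the spread between cultures, preparations or animals. The fit was run on simulated reads at the listed entries. The list filter was not applied to them again, so the simulation does not cover the part of that filter. Intervals are Wilson at 95% (scipy 1.17.1). Alternatives changed the number of lists, the reads required, the barred day, the scale, the model, the block and the days.

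The sites, rules and lists were chosen with earlier results of these data known. Named sites are the 10 in the most later lists, the 3 best read on all later days of each tissue, the 6 with the highest and 3 with the lowest mean level (the highest among sites with a median of at least 10 reads), the sites of the 3 contigs with most of them, the 6 on contigs with most day 0 reads, the 5 nearest a day 0 site, and the 2 with the smallest adjusted p per comparison. Others, among them those chosen by projected reads and DN5195_c0_g1_i2, were picked after their values were seen.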

Additional observations from a re-analysis of the deposited data

Results flagged for a closer look

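In 15 of 47 groups of 4 or 5 libraries of a tissue, 1 library stood apart from the rest by Dixon's test at 95%. The test flags about 1 in 20 groups by chance only where values are not tied. In most flagged groups all other values were tied, and any differing library is then flagged. Groups with all values equal were left out of the 47. The number of flags therefore cannot be set against that chance rate. Late-listed sites had a median of 3 reads in tail on day 7, against 1 on the other tail days, and 95.4% of them had no cut read there, against 100% on the other tail days. Their median level was 0.176 in head on day 10, against 0.2 to 0.207 on other head days, and 0.278 in trunk on day 3, against 0.25 on other trunk days. In the other 11 groups, a site's level stood apart in 1 library. In trunk these levels were 0.350 at position 262 of DN156853_c0_g1_i1 (day 5), 0.163 at position 590 of DN2841_c0_g1_i3 (day 7), 0.852 at position 243 of DN3099_c0_g1_i3 (day 7), 0.563 at position 291 of DN486_c0_g1_i4 (day 1), 0.524 at position 460 of DN7689_c0_g1_i1 (day 7), 0.202 at position 1558 of DN7836_c0_g1_i4 (day 10) and 0.328 at position 142 of DN9703_c2_g1_i4 (day 10). In head they were 0.426 at position 455 of DN3629_c0_g1_i4 (day 5) and 0.390 at position 595 of DN5568_c4_g1_i1 (day 5). In tail they were 0.241 at position 1105 of DN2158_c0_g1_i12 (day 7) and 0.626 at position 1095 of DN6582_c0_g1_i1 (day 7). In each of these 11 groups the library named was the one with cut reads, while the others had none and shared the ceiling level.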

How the results depend on the processing

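The number of late-listed sites followed the rule's settings. It was 852 with at least 3 later lists, 266 with at least 5 and 165 with at least 6, 109 when later entries needed 10 reads and 104 when they needed 11 uncut reads, and 236 when the contig, or its assembly gene, had to be absent on day 0. Barring day 1 or 3 in place of day 0 gave 505 and 457 sites, of which 132 and 130 were also late-listed. Barring day 5, 7 or 10 gave 203, 159 and 880 sites, of which 34, 25 and 134 were also late-listed. Leaving out 1 later library gave 360 (without head day 5) to 456 sites (without tail day 1). With depth from summed reads, a measure added after the data were seen, 22 sites in place of 48 reached a projection of 11 reads. Calls over all sites moved as well. For head minus trunk, 5 calls became 16 on at least 10 reads, 123 on the logit scale, 12 by the quasi-binomial model, 25 without sites lacking cut reads, 31 without the day block, and 0 (without day 1, 5 or 7), 3 (without day 3) or 16 (without day 10) when a day was left out. For head minus tail, 8 became 14 on at least 10 reads, 17 on the logit scale, 20 without sites lacking cut reads, 25 without the block, and 5 (without day 3) to 24 (without day 10) with a day left out. For trunk minus tail, 4 became 11, 42, 14, 19 and 32 under the same 5 settings as head minus trunk, and 0 (without day 1 or 3) to 8 (without day 10) with a day left out. Late-listed sites were called only in the settings that follow, given beside the calls over all sites tested. For head minus trunk, 1 of 12 was called on at least 10 reads, against 16 of all 118. On the logit scale 5 of 30 were called (4 lower, 1 higher in head), against 123 of 377. With cut-read sites only, the counts were 4 of 20 and 25 of 198. They were 3 of 30 and 31 of 386 without the block, and 1 of 16 and 16 of 288 without day 10. For head minus tail without the block, 1 of 4 was called, against 25 of 218. On the logit scale, 52 of the 123 head minus trunk calls were at sites whose level difference in the main fit was 0 or had no spread. At sites with no cut read, the logit follows the number of reads. Of all settings, 44 kept the counts within 1.5 times. Those barring day 1 or 3 are among them, though most of their sites were not late-listed. A count of 0 that stayed at 0 was also taken as kept. The slope gave 0 calls under each of its settings, the quasi-binomial model included. The cause of the other shifts was not tested. Days are the only replicates, most sites rest on fewer than 10 reads, and a level at its ceiling carries no spread, which limits all these tests.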
